A study of Homo sapiens with 24 samples.

Results

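Chromatin accessibility was followed at the 50 human protein-coding genes whose symbol starts with PSMA, PSMB, PSMC, PSMD, PSME, PSMF or PSMG and a digit, of 20163 protein-coding genes in the hg19 annotation. Of these, 48 encode subunits, activators, an inhibitor or assembly factors of the proteasome. The remaining 2 match by prefix alone: PSMC3IP encodes a meiotic recombination factor, and PSME3IP1 encodes a protein that binds the activator PSME3. Both were kept, because the naming rule takes them.

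The established diffuse large B-cell lymphoma (DLBCL) lines OCI-LY3 and VAL were treated with 30 nM AZD4573, an inhibitor of the transcriptional kinase CDK9 (CDK9i), and profiled by ATAC-seq at 0, 3 and 8 h. Each of the 6 groups had 4 libraries, 2 made by the standard method from 50000 cells and 2 by Fast-ATAC from 5000 cells according to the sample labels, although the protocol text gives 50000 cells for Fast-ATAC too. All were from cultures in RPMI-1640 with fetal bovine serum and antibiotics. ATAC-seq reads out where a transposase can insert into DNA, so an increased region is one called with more insertions than the 0 h control. The names of the lists give that control as DMSO. The data used here were 8 lists of regions whose accessibility was called increased or decreased at 3 h or 8 h against 0 h of the same line. The lists held 1677 to 11121 regions each, 26369 distinct regions in all, and 43 of these lay at or over the 50 genes. The lists give coordinates alone, without a value per library, so the depth, the size of each change and the spread between libraries are unknown, and no member could be tested again. The comparisons at 3 h and 8 h share the 0 h libraries of their line, and no replicate error can be attached to the counts that follow.

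The proteasome is the protease that destroys ubiquitin-tagged proteins. Its 20S core is a stack of alpha and beta rings, with the alpha rings as gate and the beta rings as cutting chamber. The 19S cap binds ubiquitin, removes it, unfolds the substrate and pushes it into the core. In lymphoid cells, and after interferon, the beta subunits PSMB8, PSMB9 and PSMB10 replace their constitutive counterparts to form the immunoproteasome, which cuts peptides for antigen presentation. Transcription of proteasome genes is known to be raised by NFE2L1, which binds antioxidant response elements (ARE), when proteasome activity falls short.

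A promoter was taken as listed when a region came within 1000 bp of a transcription start site (TSS) of the gene. The sequences that follow come from the 250 bases before the canonical TSS, without annotated untranslated regions, in hg19 (GRCh37), 5′ to 3′ on the gene's strand. PSMA7 (chr20:60718487-60718700, minus strand) and PSMB9 (chr6:32821719-32821968, plus strand) are shown from the 4 members whose promoters were listed as increased in all 4 comparisons. PSMC5 and PSME3 meet the same rule but are not shown, and neither has a match to the ARE core. PSME1 (chr14:24605153-24605371, plus strand) is shown because it was listed at 8 h in both lines, and PSMB5 (chr14:23504110-23504320, minus strand) as a catalytic subunit gene that was in no list. Capitals mark matches to any of 9 short motifs that are spelled out further on. In PSMA7 the 3 runs start with or are the ARE core, the first of them joined to an overlapping SP/KLF match, while in PSMB9 the runs are CCAAT, an ARE core and an SP/KLF match, in PSME1 an ARE core and an SP/KLF match, and PSMB5 has none. These examples do not stand for all members. Over the 300 bp searched further on, an ARE core was present in 10 of the 32 listed members and 4 of the 18 others.
PSMA7: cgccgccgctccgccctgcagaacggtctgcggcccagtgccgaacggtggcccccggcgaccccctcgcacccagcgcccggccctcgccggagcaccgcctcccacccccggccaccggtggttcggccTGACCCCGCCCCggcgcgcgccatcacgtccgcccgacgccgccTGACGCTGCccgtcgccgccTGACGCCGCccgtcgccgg
PSMB9: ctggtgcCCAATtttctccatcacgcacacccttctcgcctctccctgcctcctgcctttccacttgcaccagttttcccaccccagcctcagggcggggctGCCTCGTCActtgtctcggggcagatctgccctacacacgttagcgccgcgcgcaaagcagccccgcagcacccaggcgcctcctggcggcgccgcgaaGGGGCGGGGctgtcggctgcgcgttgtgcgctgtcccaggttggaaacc
PSME1: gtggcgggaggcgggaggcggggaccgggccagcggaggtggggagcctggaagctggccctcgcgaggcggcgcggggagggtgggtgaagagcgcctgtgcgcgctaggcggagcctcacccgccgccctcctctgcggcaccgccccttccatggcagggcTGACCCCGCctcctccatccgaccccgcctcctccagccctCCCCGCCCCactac
PSMB5: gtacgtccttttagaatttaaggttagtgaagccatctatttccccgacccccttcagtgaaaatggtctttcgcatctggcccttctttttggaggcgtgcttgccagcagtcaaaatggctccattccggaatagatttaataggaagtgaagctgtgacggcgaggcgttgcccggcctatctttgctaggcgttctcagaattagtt

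After CDK9i, with every region counted, increased regions lay at the promoters of a larger share of members than of all protein-coding genes in each comparison. In VAL, 11 of 50 members (22.0%) had an increased region at a promoter at 3 h, where 10.3% of all protein-coding genes did, and 26 of 50 (52.0%) did at 8 h, against 25.1% of all genes. In OCI-LY3, 11 of 50 (22.0%) were listed at 3 h against 5.92% of all genes, and 14 of 50 (28.0%) at 8 h against 9.30%. These counts depend on regions that neighbouring genes share. With regions near a TSS of another gene left out, 3 members were listed in OCI-LY3 after 3 h (6.00% against 3.59% of all genes) and 5 at 8 h (10.0% against 5.87%), and 7 in VAL after 3 h (14.0% against 6.75%) and 19 at 8 h (38.0% against 18.1%). Without chromosome 17, VAL after 3 h had 6 of 42 members listed (14.3% against 9.19%). This count of 6 and the OCI-LY3 counts of 3 and 5 lie near the shares of all genes. They are not read as a result about the members. Decreased promoter regions numbered 0 among the members in each comparison, beside 0.322% of all genes in VAL after 3 h, 3.38% in VAL after 8 h, 0.694% in OCI-LY3 after 3 h and 1.28% in OCI-LY3 after 8 h. In a set of 50 genes a count of 0 lies near these shares and is no result about the members. The background covers every protein-coding gene, including those whose promoters may be closed in B cells, and the lists cannot show which those are. With regions over the gene counted as well, increased regions reached 12 members in VAL after 3 h (against 14.3% of all genes) and 28 at 8 h (56.0% against 33.2%), and 11 in OCI-LY3 after 3 h (22.0% against 8.71%) and 16 at 8 h (32.0% against 16.0%).

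**Figure D1:**
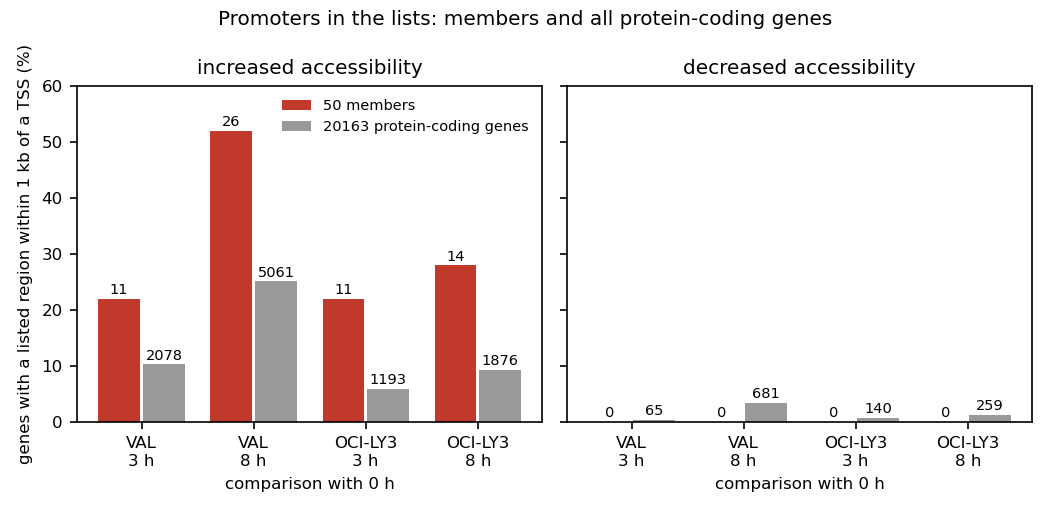
Share of genes (%) with a listed region within 1 kb of a TSS, for the 50 members (red) and 20163 protein-coding genes (grey), with gene counts above the bars; left, increased, right, decreased. With every region counted, the members' share is above that of all genes in each increased comparison (52.0% against 25.1% in VAL after 8 h, 22.0% against 5.92% in OCI-LY3 after 3 h). Without regions shared with another gene, OCI-LY3 after 3 h has 3 members (6.00% against 3.59%), near the share of all genes. The members' share is 0 in each decreased comparison, near the 0.322 to 3.38% of all genes.

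In all, 32 members had an increased promoter region in at least 1 comparison (64.0%), as did 27.9% of all protein-coding genes. Of these, 16 were listed in VAL alone (32.0% of members, 17.2% of all genes), 5 in OCI-LY3 alone (10.0% and 2.47%) and 11 in both lines (22.0% and 8.29%). By regions near no TSS of another gene, only PSMD2 was listed in OCI-LY3 alone. PSMB2, PSMC3IP, PSMD4, PSMD8, PSME1 and PSME3 were then listed in both lines. The share of all genes was not counted in this way. PSMA7, PSMB9, PSMC5 and PSME3 (8.00% of members) were listed in all 4 comparisons, as were 2.84% of all genes, with the 0 h libraries of each line used at both times. With regions near a TSS of another gene left out, 0 members were listed in all 4, beside 1.70% of all genes, since each of these genes was listed in OCI-LY3 after 3 h only through a region shared with SS18L1, TAP1, FTSJ3 or BECN1. Another 18 had no promoter region in any list, and 13 of these had no region over the gene either: PSMA3, PSMB1, PSMB5, PSMB11, PSMC4, PSMC6, PSMD1, PSMD5, PSMD6, PSMD7, PSMD10, PSMD14 and PSMG1. Absence from a list can mean no change, a change below the calling limits or no called peak, and these cannot be told apart here.

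**Figure D2:**
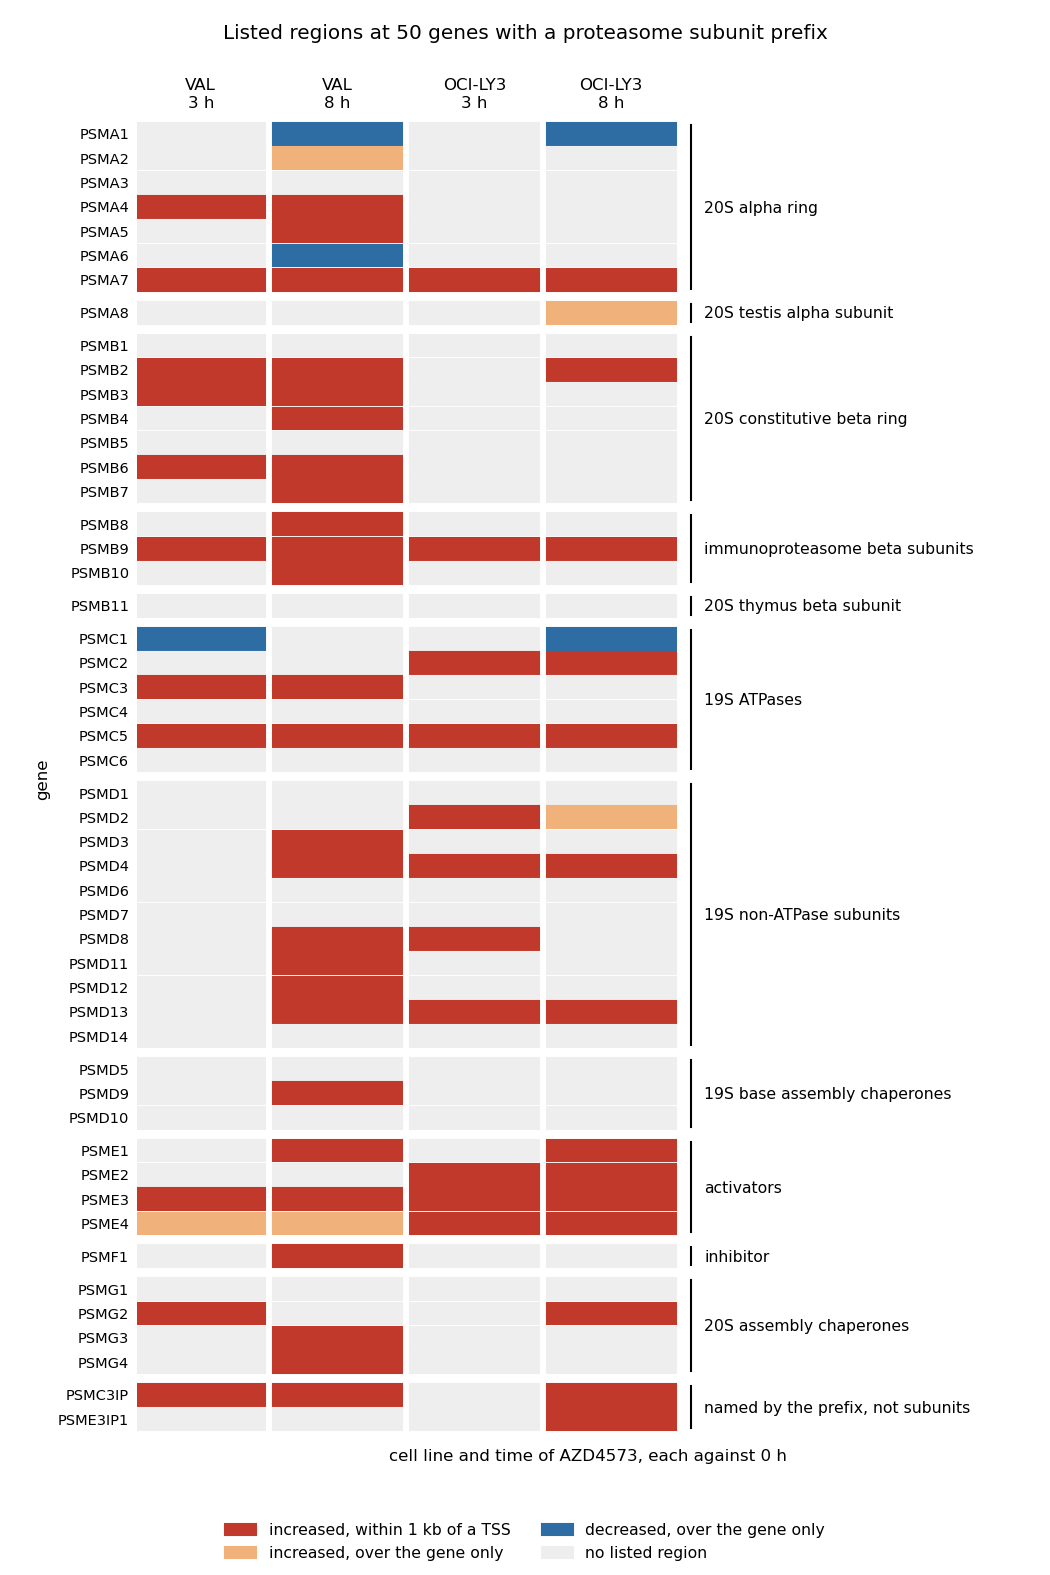
The 50 members (rows, by subcomplex) in the 4 comparisons with 0 h (columns), colored by whether an increased region lay within 1 kb of a TSS (red), over the gene only (orange), a decreased region over the gene only (blue), or none was listed (grey). VAL after 8 h has the most red cells, 26 of 50.

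The alpha ring of the 20S core, which forms its gated entrance, had increased promoters at 3 of 7 genes in at least 1 comparison, beside 27.9% of all genes. PSMA7 was listed in all 4 comparisons by 1 region of 1990 bp (chr20:60717592-60719581), which covers exon 1 and part of intron 1 and lies near a TSS of SS18L1. PSMA4 was listed in VAL after 3 h and 8 h (chr15:78832299-78833861), and PSMA5 in VAL after 8 h (chr1:109968025-109969826). Neither was listed in OCI-LY3, and they are the alpha genes with a region of their own. PSMA1, PSMA2, PSMA3 and PSMA6 had no promoter region, and nor did PSMA8, which replaces an alpha subunit in testis.

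Of the 7 constitutive beta subunit genes, 5 had increased promoters in at least 1 comparison (27.9% of all genes), all of them in VAL and 1, PSMB2, also in OCI-LY3. PSMB2 was listed in VAL after 3 h and 8 h and in OCI-LY3 after 8 h (chr1:36106365-36108099, exon 1 and intron 1). PSMB3 (chr17:36907954-36909566) and PSMB6 (chr17:4698992-4700103), which encodes the caspase-like catalytic subunit, were listed in VAL at both times. PSMB4 (chr1:151370942-151372608) and PSMB7 (chr9:127177105-127178306), the latter encoding the trypsin-like subunit, were listed in VAL after 8 h. The gene of the chymotrypsin-like subunit, PSMB5, and that of the structural subunit PSMB1 were in no list. By comparison, 3 of the 7 were listed in VAL after 3 h (10.3% of all genes) and 5 at 8 h (25.1%), and 0 in OCI-LY3 after 3 h (5.92%) and 1 at 8 h (9.30%). PSMB3 and PSMB6 are on chromosome 17, where VAL listed more genes than at large, 28.1% after 3 h and 54.6% after 8 h. With 7 genes, the OCI-LY3 counts lie near the share of all genes, and the lines are not shown to differ.

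All 3 immunoproteasome beta subunit genes were listed in VAL after 8 h, where 25.1% of all genes were, and 1 of them, PSMB9, in the other 3 comparisons as well. Each did so through a region near a TSS of another gene, so that 0 of the 3 were listed by a region of their own in any comparison, beside 18.1% of all genes in VAL after 8 h. The PSMB9 region (chr6:32820668-32822758, 2091 bp) also covers the TSS of TAP1, a subunit of the transporter that brings peptides into the endoplasmic reticulum, so that an insertion there cannot be assigned to either gene. PSMB8 was listed in VAL after 8 h by a region of 2125 bp (chr6:32811386-32813510) that also covers an alternative TSS of PSMB9. PSMB10 was listed in VAL after 8 h (chr16:67969198-67971104) by a region that runs from position -351 from the TSS through exon 6 of 8 and lies near a TSS of ENSG00000261884, an entry without a symbol. PSMB11, the thymus-specific beta subunit, was in no list.

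Among the 19S ATPases, which form the unfolding ring at the base of the cap, 3 of 6 genes were listed in at least 1 comparison, beside 27.9% of all genes. Each comparison listed 2 of the 6, beside 10.3% and 25.1% of all genes in VAL after 3 h and 8 h and 5.92% and 9.30% in OCI-LY3. By a region of its own, PSMC3 alone was listed, in VAL. PSMC5 was listed in all 4 comparisons by 1 region (chr17:61903857-61905711, exons 1 and 2) that it shares with FTSJ3, a ribosome biogenesis factor, on the other strand. PSMC3 was listed in VAL after 3 h and 8 h (chr11:47447228-47448882). PSMC2 was listed in OCI-LY3 after 3 h and 8 h (chr7:102984220-102985568), but that region covers an alternative TSS of the gene next to DNAJC2 and ends at position -2522 from the canonical one. PSMC1, PSMC4 and PSMC6 had no promoter region.

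Of the 11 other 19S subunit genes, 6 were listed in VAL after 8 h (25.1% of all genes) and 4 in OCI-LY3 after 3 h (5.92%). The counts of 0 in VAL after 3 h (10.3%) and 2 in OCI-LY3 after 8 h (9.30%) lie near the share of all genes. Leaving out PSMD13, which was listed through a shared region, the counts were 5 in VAL after 8 h (18.1% of all genes by a region of their own) and 3 and 1 in OCI-LY3 (3.59% and 5.87%). PSMD4, a ubiquitin receptor of the cap, was listed in VAL after 8 h and in OCI-LY3 at both times (chr1:151226724-151228070). The same comparisons listed PSMD13, a lid subunit, through a region shared with the mitochondrial deacetylase gene SIRT3 (chr11:235913-237683). PSMD8, also of the lid, was listed in VAL after 8 h and in OCI-LY3 after 3 h, but not in OCI-LY3 after 8 h (chr19:38864749-38866258). PSMD3 (chr17:38136167-38137809), PSMD11 (chr17:30771058-30772623) and PSMD12 (chr17:65361809-65363314), lid subunits whose genes are all on chromosome 17, were listed in VAL after 8 h alone. PSMD2, the large base subunit that binds ubiquitin-like domains, was listed at its promoter in OCI-LY3 after 3 h (chr3:184016221-184017679), while at 8 h the listed region lay over exons 13 to 15 (chr3:184022936-184024292) and the promoter was not listed. PSMD14, the lid deubiquitinase, was in no list. Of the 3 chaperones that assemble the 19S base, PSMD9 was listed in VAL after 8 h (chr12:122326164-122327469), and PSMD5 and PSMD10 were in no list.

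The activators open the core without ubiquitin, and 3 of their 4 genes were listed in OCI-LY3 after 3 h and all 4 at 8 h, where 5.92% and 9.30% of all genes were. Without regions shared with another gene, these counts were 0 of 4 at 3 h (3.59% of all genes) and 2 of 4 at 8 h (PSME1 and PSME3, 5.87%). In VAL, 1 was listed at 3 h and 2 at 8 h, within 1 gene or so of the 10.3% and 25.1% of all genes, and the difference between the lines was not tested. PSME1 and PSME2 encode the interferon-inducible PA28 alpha and beta chains. PSME1 was listed at 8 h in both lines (chr14:24604590-24606118), whereas PSME2 was listed in OCI-LY3 after 3 h and 8 h (chr14:24615461-24617324, shared with RNF31, a subunit of a linear ubiquitin ligase) and not in VAL. PSME3, the nuclear PA28 gamma, had 2 listed regions. One covers an alternative TSS beside the autophagy gene BECN1 (chr17:40975497-40976829) and was listed in all 4 comparisons, and the other covers the canonical TSS (chr17:40984751-40986144) and was listed in VAL after 3 h and 8 h and in OCI-LY3 after 8 h. PSME4, the PA200 activator, was listed at its promoter in OCI-LY3 after 3 h and 8 h (chr2:54196676-54198869, shared with ACYP2), while VAL after 3 h and 8 h had a different region in intron 1 (chr2:54188760-54190206).

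PSMF1, which encodes the PI31 inhibitor, was listed in VAL after 8 h (chr20:1098572-1100242). Of the PSMG genes, whose products chaperone assembly of the 20S core, PSMG3 (chr7:1608925-1610721) and PSMG4 (chr6:3258685-3260356) were listed in VAL after 8 h. PSMG2 was listed in VAL after 3 h and in OCI-LY3 after 8 h, but not in VAL after 8 h (chr18:12702090-12704007, shared with the centrosomal gene CEP76). In OCI-LY3 after 8 h a further region covered an upstream alternative TSS of PSMG2 beside SPIRE1 (chr18:12657192-12658957). PSMG1 was in no list. Of the prefix-only genes, PSMC3IP was listed in VAL after 3 h and 8 h and in OCI-LY3 after 8 h (chr17:40729324-40731144), and PSME3IP1 in OCI-LY3 after 8 h (chr16:57219195-57221186, shared with RSPRY1).

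Decreased regions touched the members only away from promoters, at PSMA1, PSMA6 and PSMC1. In VAL, decreased regions at or over a gene reached 1 member at 3 h against 4.0% of all genes and 2 at 8 h against 12.5%. In OCI-LY3 they reached 0 members at 3 h against 4.40% and 2 at 8 h against 7.07%. The region in PSMA1 (chr11:14646328-14648583) was listed in VAL and OCI-LY3 after 8 h. It ends at position -104396 from the canonical TSS, inside a long alternative transcript. The region in PSMA6 (chr14:35753992-35756047) was listed in VAL after 8 h and lies between positions -7596 and -5541 from the canonical TSS, again within a longer transcript. The region in PSMC1 (chr14:90740418-90741159) overlaps the untranslated end of exon 11 of 11 and was listed in VAL after 3 h and in OCI-LY3 after 8 h. Increased regions over the gene alone were listed at PSMA2 in VAL after 8 h (exon 4, chr7:42963729-42965278) and at PSMA8 in OCI-LY3 after 8 h (intron 6, chr18:23760695-23762344). PSMD9 and PSMF1 each had a second increased region in VAL after 8 h near the 3′ end of the gene, within 1000 bp of a TSS of CFAP251 and of TMEM74B.

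The 0 h libraries of VAL and OCI-LY3 are separate, so the lists of the lines can be set side by side. At 3 h, 4 members were listed in both lines, 36.4% of the 11 in VAL and 36.4% of the 11 in OCI-LY3. For all protein-coding genes, the 676 shared genes made up 32.5% of the VAL list and 56.7% of the OCI-LY3 list. At 8 h, 9 members were shared (PSMA7, PSMB2, PSMB9, PSMC3IP, PSMC5, PSMD4, PSMD13, PSME1 and PSME3), 34.6% of the 26 in VAL and 64.3% of the 14 in OCI-LY3, while for all genes the 1511 shared were 29.9% and 80.5%. The members listed in OCI-LY3 alone over both times were PSMC2, PSMD2, PSME2, PSME4 and PSME3IP1. Being listed in one line and not in the other does not show that the lines differ at that gene, since the difference was not tested.

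Many of the listed promoters were shared with a neighbouring gene, and this bears on OCI-LY3 most. Of the 34 distinct promoter regions, 14 also lay within 1000 bp of a TSS of another protein-coding gene, which for PSMB10 and PSMD9 is an entry without a symbol. Head-to-head partners, with starts on opposite strands, included PSMC5 and FTSJ3 (21 bp apart), PSMC2 and DNAJC2 (84 bp), PSMB8 and the alternative start of PSMB9 (89 bp), PSME2 and RNF31 (94 bp), PSME4 and ACYP2 (115 bp), PSME3 and BECN1 (138 bp), PSMD13 and SIRT3 (142 bp), PSMA7 and SS18L1 (339 bp) and PSMB9 and TAP1 (376 bp), measured between the closest annotated starts in the region. In OCI-LY3, 8 of the 11 listed members at 3 h (72.7%) and 9 of the 14 at 8 h (64.3%) had shared regions only, where the same held for 39.3% and 36.9% of all listed genes. In VAL the shares were 36.4% of 11 members at 3 h and 26.9% of 26 at 8 h, beside 34.5% and 28.1% of all listed genes. The members of OCI-LY3 with a region of their own were PSMD2, PSMD4 and PSMD8 at 3 h, and at 8 h they were PSMB2, PSMC3IP, PSMD4, PSME1 and PSME3. Which gene of a shared region the change belongs to was not tested.

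The lists of both lines were uneven along the genome. In VAL after 8 h, 50.1% of genes were listed on chromosomes 16 and 19 and 42.6% on chromosome 20, beside 2.65% on X. In OCI-LY3 after 8 h, the shares on chromosomes that hold members ran from 2.53% on X to 28.2% on chromosome 19. On chromosome 17, all 8 members (PSMB3, PSMB6, PSMC3IP, PSMC5, PSMD3, PSMD11, PSMD12 and PSME3) were listed in VAL after 8 h, where 54.6% of the protein-coding genes of that chromosome were. At 3 h in VAL, 5 of the 8 were listed, beside 28.1% of the genes of chromosome 17. In OCI-LY3 the same 8 genes gave 2 at 3 h and 3 at 8 h, beside 6.81% and 13.9%. Without chromosome 17, the 42 other members gave, beside the 6 in VAL after 3 h, 18 listed promoters in VAL after 8 h (42.9% against 23.3% of all genes off that chromosome), and 9 (21.4% against 5.86%) and 11 (26.2% against 9.02%) in OCI-LY3. Chromosomes 16, 19 and 20 were kept in these counts, so the unevenness is not removed. Chromosome 14 also holds 8 members, and PSME1 alone was listed in VAL after 8 h, beside 17.2% of its genes. On chromosome 1 all 4 members (PSMA5, PSMB2, PSMB4 and PSMD4) were listed in VAL after 8 h, beside 26.2%.

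**Figure D3:**
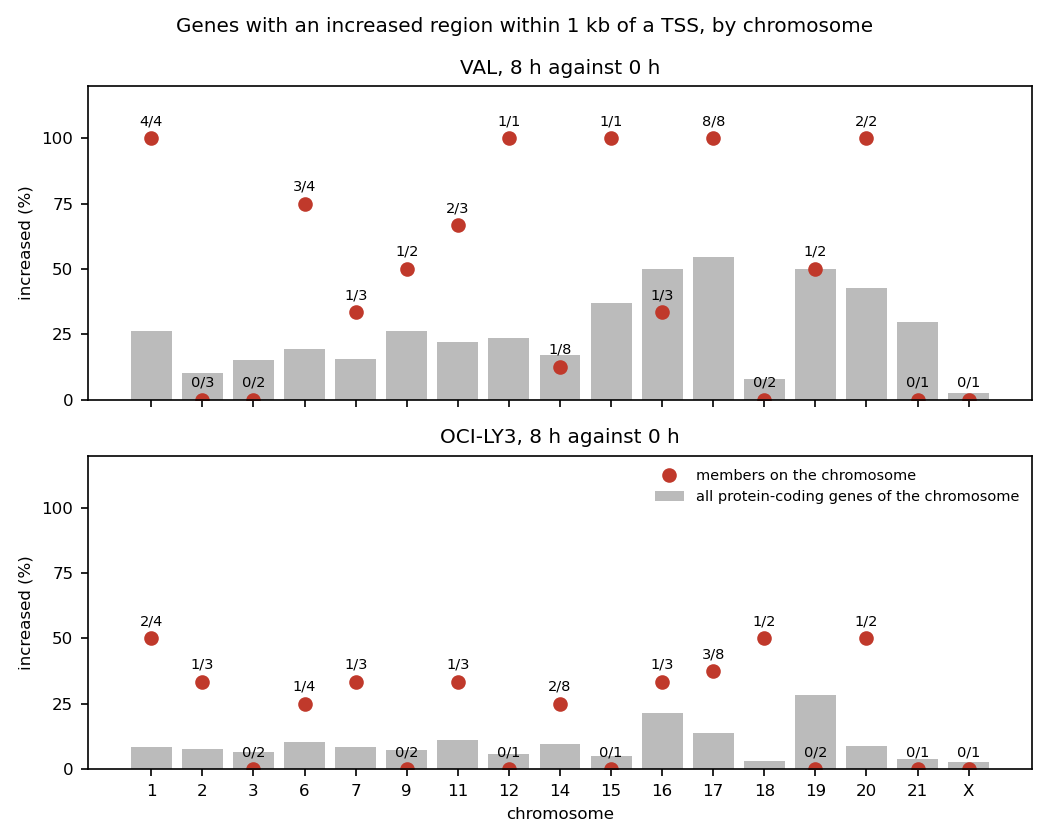
Share of genes (%) with an increased region within 1 kb of a TSS at 8 h against 0 h, by chromosome, for VAL (top) and OCI-LY3 (bottom); grey bars are all protein-coding genes of the chromosome, red points the members there, with listed members over members. On chromosome 17 VAL has 8 of 8 members listed beside 54.6% of genes, and OCI-LY3 3 of 8 beside 13.9%; chromosomes with no member are not drawn.

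Most of the listed promoter regions covered a start site, as they did for genes at large. Counting a region once for each member, there were 35 pairs of member and region, of which 31 covered the canonical TSS, 4 covered another annotated TSS of the member, and 0 lay near a start without covering one. The canonical TSS was thus covered in 88.6% of pairs, beside 85.7% of the 5952 such pairs over all protein-coding genes, of which 94.1% covered an annotated TSS. Among the 31, the midpoint of the region lay between positions -624 and 602 from the TSS in the direction of the gene, with a median of -7.00 bp. The 34 distinct regions were 1112 to 2194 bp wide (median 1669 bp), beside a median of 1573.5 bp for all 5048 increased regions near a protein-coding TSS. The regions are peaks merged across samples, so their edges and midpoints do not show the extent of the change. Their GC content ran from 50.5% at PSMB2 to 77.2% at PSMA7, with a median of 57.2%, beside a median of 62.4% for those 5048 regions.

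**Figure D4:**
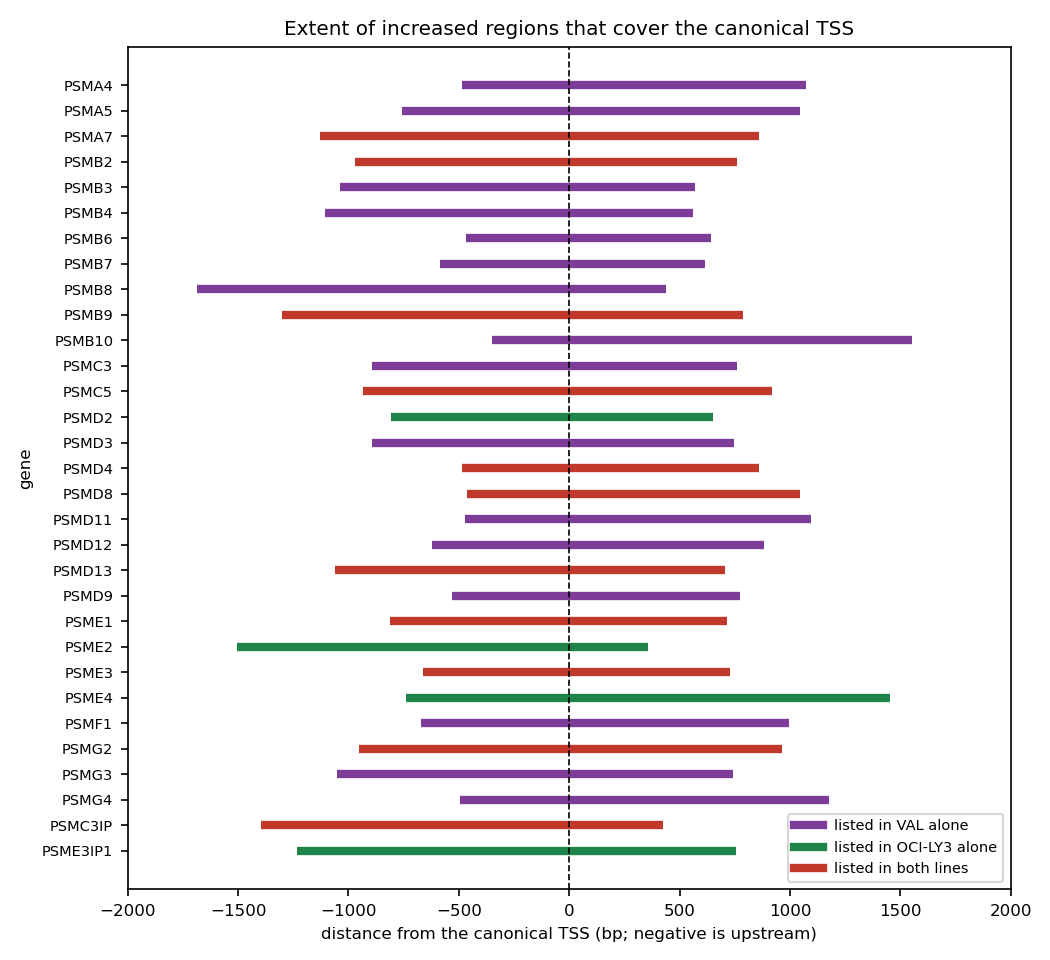
Extent of the 31 increased regions that cover a member's canonical TSS, in bp from that TSS (dashed line; negative is upstream), ordered by subcomplex and colored by the line or lines that listed them. The bars reach to both sides of the TSS, and PSMB10 and PSME4 extend farthest downstream, to 1555 and 1454 bp. The edges are those of peaks merged across samples and do not mark the extent of the change.

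The base composition of listed and unlisted members overlapped. Over the 300 bp from 250 bp before to 50 bp after the canonical TSS, the GC content of the 32 listed members had a median of 62.6% (44.7 to 80.7%) and that of the 18 others a median of 60.6% (48.3 to 71.3%). All 19881 protein-coding promoters read had a median of 63.7%. Across all genes, promoters listed as increased in VAL after 8 h had a median GC content of 68.0% and the rest 61.7%. The medians of CpG dinucleotides were 23.5 and 22.0 in the members and 23.0 in all promoters.

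The same 300 bp were searched on both strands for exact matches to short motifs, as a description of letters and not of binding. The ETS motif CCGGAAGT was present in 14 of 50 members (28.0%) and in 6.16% of all 19881 promoters, in 9 of the 32 listed members and 5 of the 18 others. The ARE core TGACNNNGC, to which NFE2L1 and NFE2L2 are known to bind, was present in 14 members (28.0%) and 14.0% of all promoters, in 10 listed members and 4 others. PSMA7 had 3 such matches, starting at positions -119, -75 and -55 from the TSS, as printed in its sequence. CCAAT was present in 22 members (44.0%) and 36.0% of all promoters, and GGGGCGGGG (SP/KLF) in 13 (26.0%) and 24.6%. AAGATGGCG (YY1) matched 4 members (8.00% against 2.85%), CGCATGCG (NRF1) matched PSMA4 (2.00% against 2.85%), GAANNTTC (heat shock element core) matched PSMC3IP (2.00% against 5.42%), and TGACGTCA (CRE) matched 0 members against 2.68% of all promoters. CCAAT was in 13 of the 32 listed members and 9 of the 18 others.

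The core of the interferon-stimulated response element (ISRE), TTCNNTTTC, was present in 7 members (14.0%) and 7.01% of all promoters, and all 7 were among the 32 listed members, with 0 among the 18 others. These sites are printed because they are the one motif among the 9 with more than 1 match whose matches were all in listed members. Each line gives the match in capitals with 10 bases on each side, on the gene's strand in GRCh37. The sites lie at chr16:67970756-67970784 (PSMB10, minus strand), chr1:151371971-151371999 (PSMB4, plus), chr6:32811809-32811837 (PSMB8, minus), chr7:102988073-102988101 (PSMC2, plus), chr14:24605399-24605427 (PSME1, plus), chr14:24615829-24615857 (PSME2, minus) and chr6:3259138-3259166 (PSMG4, plus).
PSMB10: gggtaaaggcGAAAGCGAAagcaggaagt
PSMB4: tcgtctacagGAAAAAGAAagaaatgaca
PSMB8: atctgtggctTTCGCTTTCacttcctcct
PSMC2: gtggggaaggGAAAGGGAAgacaccaccg
PSME1: ccctaccgctTTCGCTTTCccttcgcggt
PSME2: cctggggagtGAAAGCGAAagcccgggcg
PSMG4: ttccggggccGAAAGCGAAagcgcgctcg

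In 5 of the 7 sites, those of PSMB8, PSMB10, PSME1, PSME2 and PSMG4, the 9 matched letters read GAAAGCGAA on one strand or the other. The genes of the first 4 are known to be induced by interferon. Their lists differed: PSMB8, PSMB10 and PSMG4 were listed in VAL after 8 h, PSME1 at 8 h in both lines, and PSME2 in OCI-LY3 after 3 h and 8 h. A listed region of the gene covered the site in 6 of the 7, and the exception was PSMC2, whose listed region lay at its alternative start. PSMB9, listed in all 4 comparisons, had no ISRE core in this window. With 7 sites and lists that the members' own calls define, the count is a description and was not tested.

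Among 30 further genes, 26 of the ubiquitin and proteasome pathway and 4 of antigen processing, chosen by function, increased promoters were listed for 4 in VAL after 3 h (13.3%), 12 in VAL after 8 h (40.0%), 5 in OCI-LY3 after 3 h (16.7%) and 8 in OCI-LY3 after 8 h (26.7%), and decreased promoters for 0 in each. These shares stand beside the same backgrounds of 10.3, 25.1, 5.92 and 9.30%. Without the antigen processing genes, the counts were 3 of 26 in VAL after 3 h (11.5%) and 9 at 8 h (34.6%), and 3 in OCI-LY3 after 3 h (11.5%) and 5 at 8 h (19.2%). The counts in VAL after 3 h, with or without those genes, lie near the 10.3% of all genes. None of these counts was repeated without shared regions or without chromosome 17. TAP1, through the region it shares with PSMB9 and so not as a separate observation, was listed in all 4 comparisons. DDI2, the protease that activates NFE2L1, and TAPBP, which loads peptides onto class I molecules, were listed in VAL after 8 h and in OCI-LY3 after 3 h and 8 h. NFE2L1 itself, the ubiquitin shuttle UBQLN4 and VCP, the segregase that feeds substrates to the proteasome, were listed at 8 h in both lines. Others with the same roles, named after their values were seen, were in no promoter list: NFE2L2, a relative of NFE2L1, NGLY1, which processes NFE2L1, and the shuttles RAD23B, UBQLN1 and UBQLN2.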

How the data were processed

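ATAC-seq libraries (24, with 4 for each line and time) came from OCI-LY3 and VAL. Reads were aligned by the authors to hg19 with bowtie2, reads that were mitochondrial, not uniquely mapped or duplicated were removed, and peaks were called per sample with MACS2, merged and counted with bedtools and compared with 0 h (DMSO) by DESeq2. The authors state a fold change limit of 1.5 and an adjusted p limit given as 0.01 in their methods and 0.05 in a legend. Whether reads were shifted for the transposase, or the protocol entered the model, is not given in the sources used here. The deposited files are 8 lists of region coordinates with no other value, so no test was run. Starts were converted to 1-based positions, 0 regions ran past a GRCh37 chromosome end, and regions were joined with Python 3.11.15, pandas 2.3.3 and pysam 0.24.0 to GENCODE v44lift37 starts of transcripts tagged basic, at most 1000 bp away. The canonical TSS is that of the transcript tagged Ensembl canonical. The join was tested on simulated lists. Every member with a promoter region was named, and pathway genes were named where both lines listed them or a region was shared with a member. Some pathway genes are not reported here. The members and lists were chosen with earlier results of these data known. The alternatives were other distances, TSS sets, overlaps and member sets.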

Additional observations from a re-analysis of the deposited data

How the results depend on the processing

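Of 152 alternative counts of members, 144 lay within 1.5 times the reported count. Many of the 144 are decreased counts that were 0 both ways, where such a limit says nothing. Leaving out PSMA8 and PSMB11 could not change a promoter count, since neither had a promoter region. The total is therefore no measure of how firm the increased counts are. The direction is fixed by the list a region is in, so these counts do not bear on it. Leaving out regions near a TSS of another gene gave 7 members with an increased promoter in VAL at 3 h in place of 11, 3 in OCI-LY3 at 3 h in place of 11 and 5 at 8 h in place of 14. Over promoter or gene, it gave 3 and 7 members in OCI-LY3 in place of 11 and 16. Leaving out chromosome 17, an alternative chosen after seeing the data, gave 6 and 7 members in VAL at 3 h by promoter and by promoter or gene, in place of 11 and 12. At 5000 bp from the TSS, 1 member had a decreased region in OCI-LY3 at 8 h in place of 0. Dropping the prefix-only genes and requiring that a region cover a TSS, also added after seeing the data, left each count within 1.5 times.

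No paired analysis was possible because no measurement of a single library is in the lists. For the same reason a stricter calling limit and leaving out a replicate were not run. Depth is unknown, so absence from a list does not show that a promoter did not change.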
